A study of Mus musculus with 8 samples.

Results

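The 49 genes described here are the proteasome genes of an expression array, that is, every gene whose name begins with Psma, Psmb, Psmc, Psmd, Psme, Psmf or Psmg followed by a number. They are 49 of 36406 genes or transcripts named on the array and are covered by 61 of its 55681 probes. The probe with the highest mean log2 signal over all 8 arrays stood for each gene. The RNA came from E14Tg2A.4 mouse embryonic stem (ES) cells, an established line, either untreated (4 arrays) or after 3 days of retinoic acid (RA, 4 arrays). The study compared self-renewing with differentiating cells on these arrays to look for expression changes at the target genes of a chromatin protein. RA was given at 1 µM in medium without LIF, the cytokine that keeps ES cells self-renewing, so an effect of RA and an effect of LIF withdrawal cannot be told apart. All 8 RNAs were from the same line, and no genotype differed between the conditions. Of the 49 genes, 48 encode parts, partners or assembly factors of the proteasome. Psmc3ip, a meiotic recombination factor, matched by its letters alone, and its log2 fold change of -0.15 did not pass the test.

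The proteasome is the protease that degrades proteins tagged with ubiquitin. Its barrel, the 20S core particle, has outer alpha rings that form the gate and inner beta rings that hold the catalytic sites, and the 19S regulatory particle binds, unfolds and feeds in the tagged proteins by means of a ring of ATPases. Interferon-responsive cells exchange the catalytic subunits for inducible ones and add the activator PA28, which changes the peptides made for MHC class I, and dedicated chaperones assemble both particles.

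Values are log2 signals minus the array's own 75th percentile, and a difference of 1 on this scale is a doubling. A gene is called where its adjusted p was under 0.05 and its change exceeded 1.5-fold, the rule of the study, with limma and Benjamini-Hochberg adjustment over all probes. The arrays held 33629 to 37175 spots well above background of 59305, no spot was saturated, and 46 of the 49 members were well above background on all 8 arrays. Psmb8 was so on 3 of 4 untreated and on all 4 RA arrays, Psma8 on 4 and 3, and Psmb11 on none. The marker genes moved as labelled: 5 of 5 ES cell markers fell and 3 of 3 RA response genes rose. Markers of other cells moved too, with 4 of 4 primitive endoderm and 4 of 5 fibroblast genes higher and, of the neural list, Nes higher and Tubb3 lower. Of all probes, the median log2 fold change was -0.28 on this scale and -0.0026 after quantile normalization, so signs of small changes depend on the scaling.

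RA treatment changed 13 of 49 proteasome genes past both the test and 1.5-fold, 5 in the core and 8 outside it. For most members the estimated change was under 1.5-fold, but a small estimate or a missing call does not show that a gene stayed within that size. Among the 31 core genes the confidence interval lay wholly within 1.5-fold for 14 (45.2%). Of the 49 members, 5 were called higher (10.2%) and 8 lower (16.3%), against 13.9% higher and 22.1% lower of all genes on the array. With each array left out in turn, 2 to 5 were called higher and 3 to 9 lower (all genes: 12.8% to 14.1% and 19.4% to 23.2%). By adjusted p alone, 10 were higher (20.4%) and 12 lower (24.5%), against 15% and 24.9% of all genes, and 27 did not pass. All genes include dim ones, whereas 46 members were well above background on all 8 arrays. Of the 20404 genes that were so, 20% were higher and 32.1% lower by adjusted p alone, and 18.1% and 27.5% past 1.5-fold. With replicate number as a block the member counts by adjusted p alone were 4 (8.16%) and 8 (16.3%), against 14.3% and 22.8% of all genes in that fit. After quantile normalization the 1.5-fold split was 11 higher (22.4%) and 2 lower (4.08%), against 15.6% and 16.3% of all genes. The authors' processed values gave the same split of members, against 12.8% and 13.1% of all genes. All 13 called members had the same sign on both slides, and in 11 of them the 4 RA arrays did not overlap the 4 untreated arrays. The calls were made on these same arrays, so neither count is a separate test of them, and most uncalled members also had the same sign on both slides. Over all 49 members the RA arrays lay wholly above the untreated ones in 13 and wholly below in 14 (21% and 33.9% of the genes well above background on all 8 arrays).

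**Figure D1:**
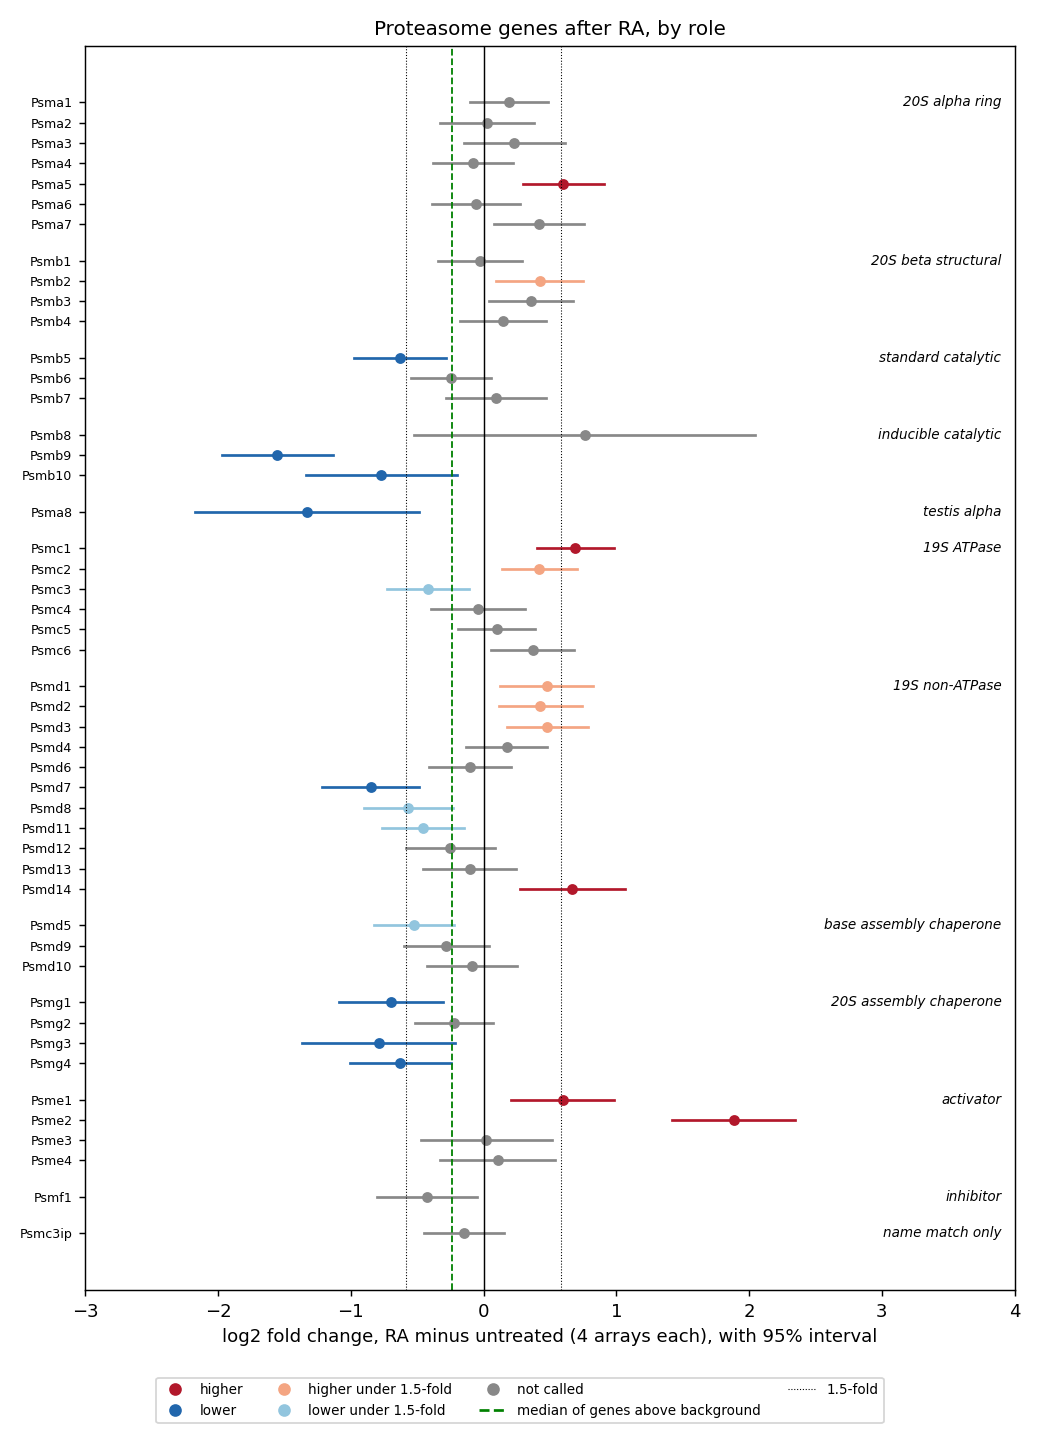
Log2 fold change (RA minus untreated, 4 arrays each) with its 95% interval for 48 of the 49 members, grouped by role, with Psmb11 left out because it was not well above background on any array. Dotted lines mark 1.5-fold and the dashed line marks the median of the 20404 genes well above background on all 8 arrays (-0.24), and Psme2 at 1.88 and Psmb9 at -1.55 lie farthest from 0.

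The largest rise was in the activator PA28. Psme1 and Psme2 encode the alpha and beta chains of PA28, a ring that caps the core particle, opens its gate without ATP and is induced by interferon gamma. The Psme2 probe, at chr14:56206296-56206355 on the minus strand (mm9), read 2.36, 2.68, 1.82 and 2.12 in untreated cells and 4.22, 4.31, 3.95 and 4.03 after RA. Every RA array lay above every untreated array, and Psme2 rose 3.69-fold (log2 fold change 1.88, SE 0.20, adjusted p = 0.00013). It was the only member called above 2-fold upward, against 10.3% of all genes (downward 2 members, against 14.5%), and it kept its call under every alternative tried. A second probe for the same transcript gave 2.17, whereas another, placed on a different transcript, was not well above background on any array.

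Psme1, at chr14:56200194-56200253 on the plus strand, read 2.36, 2.78, 2.17 and 2.73 in untreated cells and 3.11, 3.16, 3.12 and 3.04 after RA. No RA array overlapped the untreated ones, and the RA arrays lay within a narrower band than the untreated ones. Psme1 rose 1.51-fold (log2 fold change 0.60, SE 0.17, adjusted p = 0.022), at the edge of the fold threshold. Its adjusted p was 0.051 with replicate number as a block, and the call was lost without untreated replicate 1 or 3 or without RA replicate 1, 2 or 3. The 2 genes lie close together on chromosome 14 with Emc9 (listed on the array as Fam158a) between them, which encodes a subunit of the endoplasmic reticulum membrane complex. Fam158a showed a log2 fold change of 0.06 (SE 0.19, adjusted p = 0.81).

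The other activators and the inhibitor gave no call. Psme3, which forms the nuclear PA28 ring, read 1.84, 2.10, 2.17 and 2.76 in untreated cells and 2.06, 2.24, 2.11 and 2.53 after RA. Psme4, the large nuclear activator PA200, read 1.84, 1.68, 2.14 and 2.37 against 2.16, 2.35, 2.05 and 1.91. In both genes the conditions overlapped, with log2 fold changes of 0.02 (SE 0.22) and 0.11 (SE 0.19). Psmf1, the inhibitor PI31, read 1.38, 1.31, 1.51 and 1.92 in untreated cells and 1.20, 1.11, 1.09 and 1.02 after RA. All RA arrays were below the untreated ones for Psmf1, but the log2 fold change of -0.43 did not pass (adjusted p = 0.074).

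The 250 bases before the start of the PA28 genes and of the called catalytic genes are shown because these genes moved apart in direction although they serve one particle. They are RefSeq promoters of GRCm38.p6, 5′ to 3′ on the gene's own strand, with capitals marking motif matches on either strand. The motifs reported are, first, the antioxidant response element bound by Nrf factors, TGACNNNGC. Another was the interferon regulatory factor core, AANNGAAA. The CCAAT box was searched by these letters. The GC box was searched as GGGCGG. The 1 Psme2 start shown is the first of 2 in the table.
Psme1, chr14:55578244-55578493, plus strand: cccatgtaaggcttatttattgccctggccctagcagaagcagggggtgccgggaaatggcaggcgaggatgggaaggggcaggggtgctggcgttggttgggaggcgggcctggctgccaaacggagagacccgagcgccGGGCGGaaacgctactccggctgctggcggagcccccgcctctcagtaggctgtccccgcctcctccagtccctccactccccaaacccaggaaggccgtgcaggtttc
Psme2, chr14:55591022-55591271, minus strand: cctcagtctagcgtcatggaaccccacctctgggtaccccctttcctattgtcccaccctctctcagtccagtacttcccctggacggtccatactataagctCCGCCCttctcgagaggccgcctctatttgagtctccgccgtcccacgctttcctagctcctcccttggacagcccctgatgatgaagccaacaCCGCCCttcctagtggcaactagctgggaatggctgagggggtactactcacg
Psmb9, chr17:34187331-34187580, minus strand: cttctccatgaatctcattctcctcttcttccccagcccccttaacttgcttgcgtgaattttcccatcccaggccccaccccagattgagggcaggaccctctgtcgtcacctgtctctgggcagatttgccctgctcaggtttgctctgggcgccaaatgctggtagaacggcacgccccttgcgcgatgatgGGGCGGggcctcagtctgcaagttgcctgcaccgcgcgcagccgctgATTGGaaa
Psmb10, chr8:105938393-105938642, minus strand: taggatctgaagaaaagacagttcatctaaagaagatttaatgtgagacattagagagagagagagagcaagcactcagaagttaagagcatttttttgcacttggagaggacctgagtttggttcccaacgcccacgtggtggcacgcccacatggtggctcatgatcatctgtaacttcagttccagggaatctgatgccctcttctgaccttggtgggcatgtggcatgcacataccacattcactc
Psmb5, chr14:54617996-54618245, minus strand: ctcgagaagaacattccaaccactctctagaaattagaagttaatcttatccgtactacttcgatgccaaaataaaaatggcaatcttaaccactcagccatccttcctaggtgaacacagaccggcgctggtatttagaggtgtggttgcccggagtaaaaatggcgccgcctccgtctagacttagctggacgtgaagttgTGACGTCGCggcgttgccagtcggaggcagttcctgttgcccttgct
Psme1 and Psme2 held GC boxes and Psmb10 held none of these motifs. Psmb9 held a GC box and a CCAAT box on the opposite strand, and Psmb5 held the only antioxidant response element of the 5. The Psmb9 start lies 226 bases from that of Tap1, read in the opposite direction, so its window reaches the Tap1 start.

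Promoters were matched for 41 of the 49 members, and the motif shares are given beside those of the 27025 genes in the table. The antioxidant response element was present in 5 of 41 members (12.2%) and in 11.5% of all genes. The CCAAT box was present in 15 members (36.6%) and in 37.5% of all genes. The interferon regulatory factor core was present in 10 members (24.4%) and in 23.9% of all genes. The GC box was present in 22 members (53.7%) and in 35.4% of all genes. Both strands were searched and the motifs could overlap.

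Among the catalytic subunits the inducible Psmb9 and Psmb10 and the standard Psmb5 were called lower. Psmb9, the inducible subunit that takes the place of Psmb6, has its probe at chr17:34319174-34319233 on the minus strand. It read -0.67, -0.48, -0.10 and -0.10 in untreated cells and -2.14, -1.84, -1.89 and -1.70 after RA. All RA arrays were below all untreated arrays, and Psmb9 fell 2.94-fold (log2 fold change -1.55, SE 0.18, adjusted p = 0.00021). Its call held under every alternative tried, and within the slides the log2 fold changes were -1.54 and -1.57.

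Psmb10, the inducible counterpart of Psmb7, at chr8:108459677-108459736 on the minus strand, read 4.16, 4.16, 3.33 and 3.85 in untreated cells and 3.04, 3.61, 3.02 and 2.75 after RA. The highest RA array, replicate 2, overlapped the lowest untreated array, replicate 3. Psmb10 fell 1.70-fold (log2 fold change -0.77, SE 0.25, adjusted p = 0.039), and the adjusted p was 0.080 after quantile normalization. The call was also lost without untreated replicate 1, 2 or 4 or without RA replicate 1, 3 or 4. Psmb8, the inducible counterpart of Psmb5, at chr17:34337771-34337830 on the plus strand, was dim and scattered. It read -5.84, -4.17, -5.28 and -3.47 in untreated cells and -4.21, -2.77, -4.14 and -4.60 after RA, and the conditions overlapped. Its log2 fold change of 0.76 had a 95% interval from -0.52 to 2.05 (adjusted p = 0.29) and was 0.16 for Psmb8 with normexp background (a model-based correction), so neither a rise nor a fall could be read from this probe.

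Psmb5 carries the chymotrypsin-like activity of the standard core, and its probe lies at chr14:55232957-55233016 on the minus strand. It read 7.16, 6.73, 6.67 and 6.87 in untreated cells and 6.18, 6.35, 6.26 and 6.12 after RA. Each RA array was below each untreated array, and Psmb5 fell 1.55-fold (log2 fold change -0.63, SE 0.15, adjusted p = 0.011). A second probe gave -0.61. After quantile normalization the change was -0.38 and under 1.5-fold, as it was (-0.53) without untreated replicate 1. Psmb6, the caspase-like subunit, read 7.05, 6.87, 6.72 and 6.88 in untreated cells and 6.58, 6.72, 6.61 and 6.65 after RA, a log2 fold change of -0.24 that did not pass (adjusted p = 0.18) and was 0.0175 after quantile normalization. Psmb7, the trypsin-like subunit, read 4.54, 4.39, 3.97 and 4.48 against 4.50, 4.56, 4.28 and 4.42, with overlapping conditions and a log2 fold change of 0.10. Psmb11, the subunit of the thymic cortex, was not well above background on any array.

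The difference between an inducible subunit and the standard subunit it replaces was taken within each array. This removes a scaling factor common to all probes of the array, but not one that varies with signal. For Psmb9 minus Psmb6 it was -7.72, -7.36, -6.82 and -6.98 in untreated cells and -8.72, -8.55, -8.50 and -8.35 after RA, where only the change between conditions can be read and not the level of one probe against the other. All RA arrays were lower, by 1.31 on average, with p = 0.029 in the two-sided exact permutation test over arrays, the smallest that 4 against 4 arrays allow (0.043 after adjustment over the 3 pairs). With arrays permuted within slides p was 0.056, and within replicate numbers 0.13, in each case the smallest that design allows, so neither can pass 0.05. For Psmb10 minus Psmb7 the values were -0.37, -0.23, -0.64 and -0.63 in untreated cells and -1.46, -0.95, -1.26 and -1.67 after RA. All RA arrays were again lower, the change was -0.87, and the exact permutation test gave the same p, as it did within slides and within replicate numbers. Without untreated replicate 1 or 2 the exact permutation p for Psmb10 minus Psmb7 was 0.057, with changes of -0.83 and -0.78. Psmb8 minus Psmb5 changed by 1.39 with overlapping arrays (exact permutation p = 0.11). With normexp background that change was 0.77, and without untreated replicate 4 it was 1.79 (exact permutation p = 0.029, the smallest that 4 against 3 arrays can give). After quantile normalization the changes were -1.53 (Psmb9 minus Psmb6), -0.88 (Psmb10 minus Psmb7) and 1.46 (Psmb8 minus Psmb5).

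**Figure D2:**
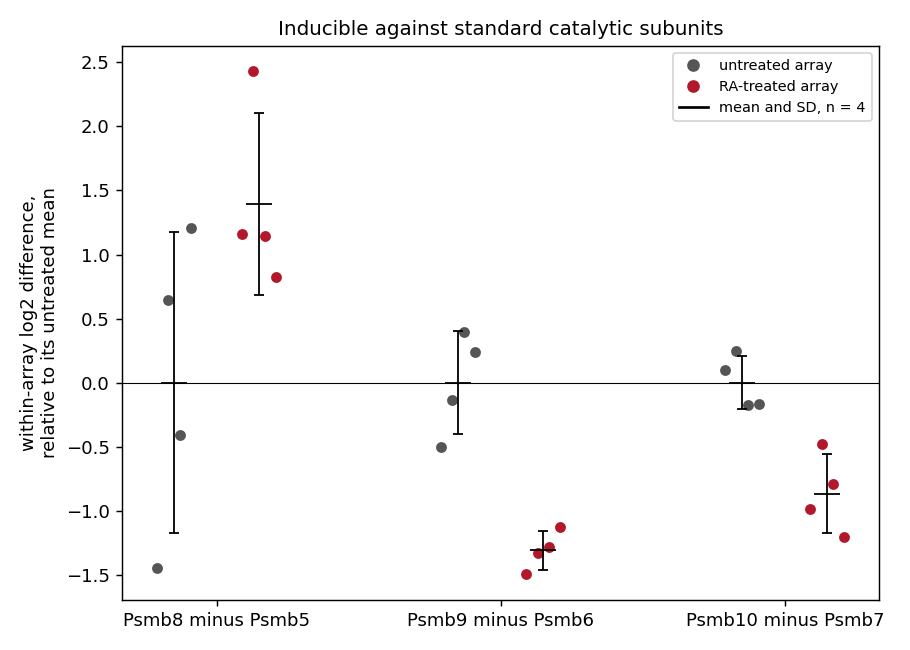
Within-array log2 difference between each inducible catalytic subunit and the standard subunit it replaces, relative to the mean of the 4 untreated arrays. Points are arrays and bars are means with SD (n = 4 per condition), and the RA arrays of Psmb9 minus Psmb6 and of Psmb10 minus Psmb7 lie below all untreated arrays, with mean changes of -1.31 and -0.87 (exact permutation p = 0.029 over all arrays for both, and 0.13 within replicate numbers).

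Psmb8, Psmb9 and Psmb10 are abundant in blood cells, so a list of haematopoietic markers was set beside them. Of its 5 genes, Coro1a and Laptm5 fell (log2 fold changes -2.08 and -2.89) and none was called higher. Csf1r was at 0.53 (adjusted p = 0.18) and Cd68 at 0.01 (adjusted p = 0.97). Ptprc, which defines these cells, was not well above background on any array. Coro1a and Laptm5 were the brightest of the list in untreated cells (mean log2 signals 0.41 and 1.17), so its sum mostly follows them. The summed linear signal of the list, as a multiple of the array's 75th percentile, was 3.34 to 4.64 in untreated cells and 1.03 to 1.76 after RA. The summed signal of the fibroblast list, which moved with Psme1 and Psme2, was 0.991 to 1.81 in untreated cells and 19.9 to 37.8 after RA, and that of the primitive endoderm list was 0.658 to 1.58 and 6.82 to 10.2. The part of these cell types in the results was not tested, and in bulk RNA fewer cells of a type and less RNA per cell cannot be told apart.

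The calls among the core genes depended on the scaling. Of the 31 core genes (14 of the 20S and 17 of the 19S particle, all well above background on all 8 arrays), 3 were called higher and 2 lower, the median log2 fold change was 0.10, and the largest change was 1.80-fold. Of the 20404 genes well above background on all 8 arrays, 18.1% were called higher and 27.5% lower. After quantile normalization 9 core genes were called higher (29%) and 1 lower (3.23%), against 20% and 21.7% of those genes, and the authors' values gave the same core counts against 18.9% and 19.8%. With 75th percentile scaling, the median size of the log2 change, whatever its sign, was 0.36 in the core and 0.59 in those genes. A change under 1.5-fold was estimated for 26 of 31 core genes (83.9%) and for 49.6% of those genes. The 95% interval lay wholly within 1.5-fold in both directions for 14 core genes (45.2%) and for 13.4%. The core genes also varied less between replicates (median SD 0.16 untreated and 0.10 RA, against 0.27 and 0.19), and lower noise narrows an interval. No set of genes matched for brightness or spread was compared. After quantile normalization the core median was 0.32, and the median size of the change was 0.41 in the core and 0.55 in those genes, a smaller gap. The estimated change was then under 1.5-fold for 21 core genes (67.7%) against 52.6%, and the interval lay within it for 16 (51.6%) against 22.3%.

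In the 20S particle 1 alpha subunit and 1 catalytic subunit, Psmb5, were called. Psma5, a subunit of the alpha ring, at chr3:108082777-108082836 on the plus strand, read 5.05, 4.75, 4.78 and 4.78 in untreated cells and 5.49, 5.52, 5.37 and 5.39 after RA. There was no overlap although untreated replicate 1 stood above its group, and Psma5 rose 1.51-fold (log2 fold change 0.60, SE 0.13, adjusted p = 0.0072). Its change fell under 1.5-fold without untreated replicate 2, 3 or 4 or without RA replicate 1 or 2, where it was 0.57 to 0.58. The other alpha subunits lay between -0.08 (Psma4) and 0.42 (Psma7), and none of them passed. Of the beta subunits without a catalytic site, Psmb2 passed the adjusted p alone at 0.42 (adjusted p = 0.126 with the replicate block), and Psmb1, Psmb3 and Psmb4 did not pass (-0.03, 0.36 and 0.15).

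In the 19S particle members of both signs stood side by side. The ATPase ring pulls substrates into the core, and of its 6 subunits Psmc1, at chr12:101361515-101361574 on the plus strand, was called. Psmc1 read 5.70, 5.46, 5.68 and 5.70 in untreated cells and 6.28, 6.38, 6.34 and 6.30 after RA. The conditions did not overlap and Psmc1 rose 1.61-fold (log2 fold change 0.69, SE 0.13, adjusted p = 0.0026), a call that held under every alternative with the 1.5-fold rule. Psmc2 passed the adjusted p alone upward (0.42) and Psmc3 downward (-0.42), neither of them with the replicate block (adjusted p = 0.093 and 0.112), and Psmc4, Psmc5 and Psmc6 did not pass (-0.04, 0.10 and 0.37).

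Psmd14 and Psmd7 pair with each other in the lid of the 19S particle, where Psmd14 is the enzyme that cuts ubiquitin chains from the substrate and Psmd7 its partner without activity. Psmd14, at chr2:61599058-61599117 on the plus strand, read 2.95, 3.12, 2.81 and 3.25 in untreated cells and 4.00, 3.80, 3.46 and 3.55 after RA. Psmd7, at chr8:110104402-110104461 on the minus strand, read 5.06, 4.86, 4.52 and 5.002 in untreated cells and 4.08, 4.10, 4.01 and 3.86 after RA. In neither gene did the conditions overlap. Psmd14 rose 1.59-fold (log2 fold change 0.67, SE 0.17, adjusted p = 0.015), and the change was 0.57 and under 1.5-fold without RA replicate 1. Psmd7 fell 1.80-fold (log2 fold change -0.85, SE 0.16, adjusted p = 0.0030) and held under every alternative with that rule.

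The remaining lid and base subunits without ATPase activity spread on both sides of 0. Psmd1 and Psmd2, the large scaffolds of the base, and Psmd3, a lid subunit, passed the adjusted p alone with 0.47, 0.43 and 0.48, but not with the replicate block (adjusted p = 0.065, 0.090 and 0.072). The lid subunits Psmd8 and Psmd11 passed it downward with -0.57 and -0.45, Psmd8 also with the replicate block and Psmd11 not (adjusted p = 0.047 and 0.092). Psmd4, a ubiquitin receptor, and Psmd6, Psmd12 and Psmd13 of the lid did not pass, with 0.17, -0.10, -0.25 and -0.10. After quantile normalization Psma7, Psmb3, Psmc2, Psmd1, Psmd2 and Psmd3 were called higher in addition, and of the lower calls Psmb9 and Psmd7 remained.

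**Figure D3:**
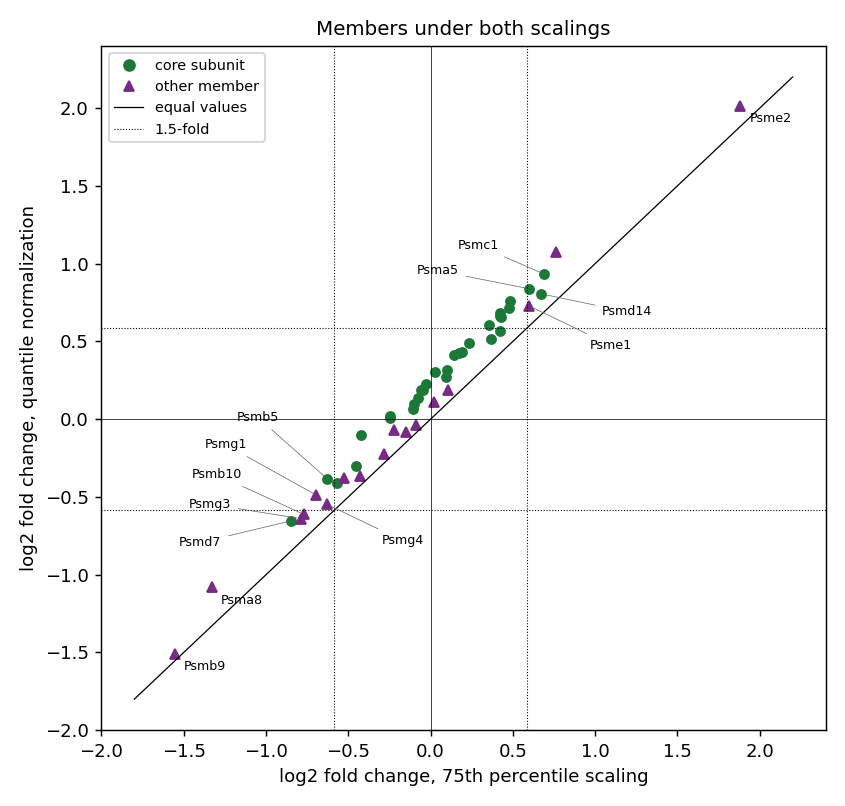
Log2 fold change (RA minus untreated) of 48 members with 75th percentile scaling (horizontal) and after quantile normalization (vertical), with core subunits as circles and other members as triangles. All 48 points lie above the line of equal values, the core median moving from 0.10 to 0.32, and the called members are named.

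The assembly chaperones, which act before the particle is finished, were all on the negative side, with 0 of 7 called higher, 3 called lower and a median log2 fold change of -0.52 (18.1%, 27.5% and -0.24 for the genes well above background on all 8 arrays), and none of the 7 changed sign under another scaling. The 3 lower calls were all lost after quantile normalization, with or without normexp background, and with the authors' values. Psmg1 forms a pair with Psmg2 that guides the alpha ring, and its probe lies at chr16:96201564-96201623 on the minus strand. Psmg1 read 5.27, 5.37, 4.82 and 5.16 in untreated cells and 4.38, 4.73, 4.29 and 4.44 after RA. The conditions did not overlap, and Psmg1 fell 1.62-fold (log2 fold change -0.69, SE 0.17, adjusted p = 0.012), with -0.78 by a second probe. Psmg2 was at -0.22 and did not pass.

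Psmg3 and Psmg4 form the other pair of alpha ring chaperones. Psmg3, at chr5:140299626-140299685 on the minus strand, read 3.88, 3.82, 2.85 and 3.92 in untreated cells and 2.62, 2.99, 2.96 and 2.76 after RA. Untreated replicate 3 lay among the RA arrays and the other untreated arrays well above them. Psmg3 fell 1.73-fold (log2 fold change -0.79, SE 0.25, adjusted p = 0.037), with an adjusted p of 0.063 with replicate number as a block. The call was lost without any 1 of 7 arrays, untreated replicate 3 being the exception. Psmg4, at chr13:34269918-34269977 on the plus strand, read 2.35, 2.06, 1.95 and 2.22 in untreated cells and 1.45, 1.22, 1.65 and 1.74 after RA. All RA arrays were lower, and Psmg4 fell 1.55-fold (log2 fold change -0.63, SE 0.17, adjusted p = 0.0165), or under 1.5-fold without untreated replicate 1 or RA replicate 2.

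Of the chaperones that assemble the base of the 19S particle, Psmd5 passed the adjusted p alone (-0.52, adjusted p = 0.058 with the replicate block), and Psmd9 and Psmd10 did not (-0.28 and -0.09). For Psmd9 the probes differed, since a dimmer probe gave -0.84 with an adjusted p of 0.0011. After quantile normalization Psmg1 (-0.49), Psmg3 (-0.64) and Psmg4 (-0.55) kept their sign and lost the call, Psmg3 by its adjusted p of 0.065 and the others by size.

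Psma8 is the alpha subunit of the testis proteasome, and it was dim in these cells. It read -3.13, -3.68, -3.18 and -3.34 in untreated cells and -4.31, -3.94, -5.80 and -4.59 after RA. The conditions did not overlap, although the RA arrays were scattered and 1 of them was not well above background. Psma8 fell 2.51-fold (log2 fold change -1.33, SE 0.37, adjusted p = 0.020), or by 1.08 on the log2 scale after quantile normalization, where its adjusted p was 0.057, and the call was lost without untreated replicate 1. The size of the fall depended on the background correction, with -0.67 for Psma8 after normexp and -0.46, under 1.5-fold, after normexp with quantile normalization and with the authors' values.

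**Figure D4:**
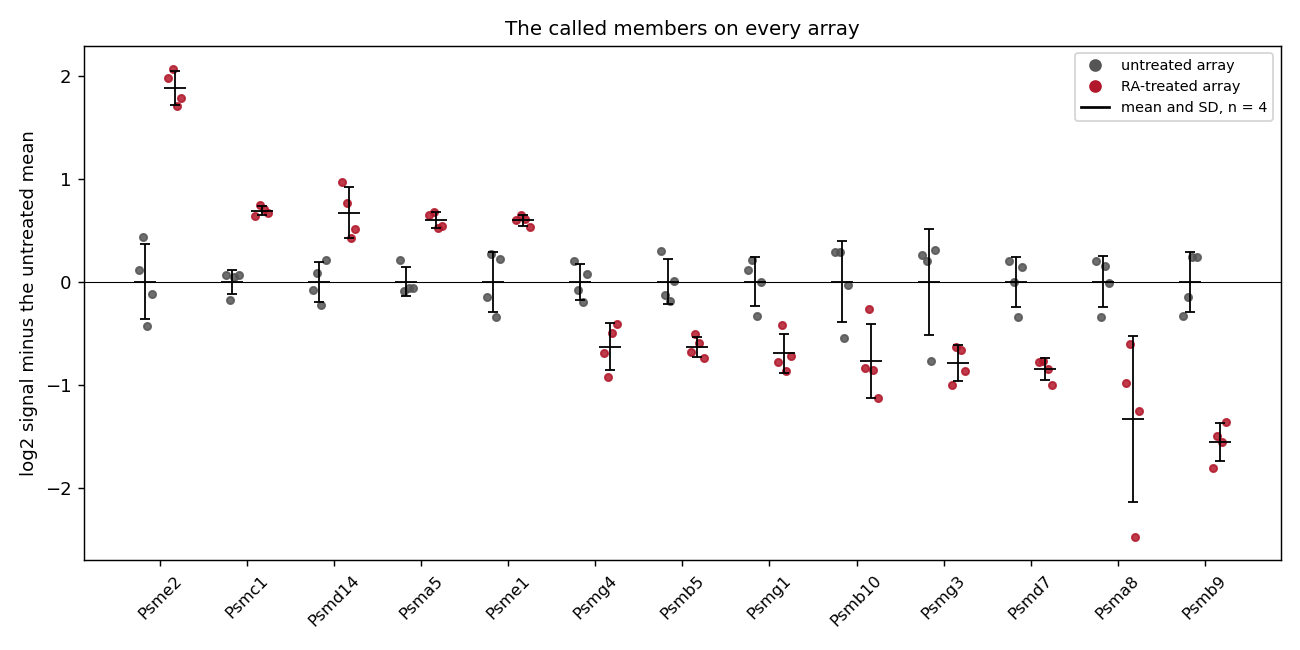
Log2 signal of the 13 called members on every array, relative to the mean of the 4 untreated arrays of each gene, with bars for mean and SD (n = 4 per condition). RA arrays do not overlap untreated arrays in 11 of the 13, the exceptions being Psmb10 and Psmg3, and Psme2 at 1.88 and Psmb9 at -1.55 have the largest mean changes.

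Of the 49 members, 11 had more than 1 probe. Their probes well above background differed in log2 fold change by 0.011 to 0.56, the largest gap being that of Psmd9, and in 1 gene, Psme4, they differed in sign (0.11 and -0.02). Between replicates the members had a median SD of 0.18 in untreated and 0.11 in RA arrays, against 0.27 and 0.19 for the genes well above background. Among the core genes the arrays moved together: untreated replicate 1 and RA replicate 2 were each the highest of their condition for 19 of 31 genes, and untreated replicate 3 was the lowest for 19 and RA replicate 3 for 14. The median deviations of the core from the condition mean were 0.13 in untreated replicate 1, 0.08 in RA replicate 2, -0.15 in untreated replicate 3 and -0.05 in RA replicate 3. Those of all genes well above background were 0.08, 0.03, -0.08 and -0.03 in the same order.

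Genes that work with the proteasome but lie outside the name rule were mixed as well. Of 29 on the array, 5 were called higher and 3 lower, beside 13.9% and 22.1% of all genes, with a median log2 fold change of -0.05. All 29 were well above background on all 8 arrays, and of all such genes 18.1% were called higher and 27.5% lower. The largest rise was that of AI314180, the mouse Ecm29 gene, an adaptor that holds the 19S and 20S particles together (log2 fold change 1.78, SE 0.20, adjusted p = 0.00017). Ubqln2, a shuttle that brings ubiquitinated proteins to the proteasome, rose by 1.21 (SE 0.18) and Ngly1, the cytosolic enzyme that removes N-glycans from proteins, by 1.10 (SE 0.18). On the lower side were Zfand2a, a stress-induced proteasome-binding protein (-1.20, SE 0.16), Nfe2l1, the transcription factor that raises proteasome genes when the protease is inhibited (-0.99, SE 0.16), and Ubqln4, another shuttle (-0.69, SE 0.14). Pomp, the maturation factor of the core, and Adrm1, a ubiquitin receptor of the base, did not pass (-0.29 and 0.08).

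The partners of the inducible proteasome in antigen processing were 11 genes, of which 4 were called higher and 2 lower, beside 13.9% and 22.1% of all genes. B2m, the light chain of MHC class I, read 1.04, 1.26, 1.73 and 1.76 in untreated cells and 4.58, 4.51, 4.35 and 4.58 after RA, a rise of 8.34-fold (adjusted p = 9.2e-06). Tapbp, which loads peptides onto MHC class I, rose 3.01-fold (adjusted p = 0.00086) and Pdia3 of the same loading complex 1.81-fold (adjusted p = 0.022). Erap1, the peptidase that trims the peptides, was well above background on 0 of 4 untreated and on 4 of 4 RA arrays. Its RA signal was at least 2.71-fold that of the untreated arrays (adjusted p = 4.4e-05), a bound set by the dimmest spots still above background. Nlrc5 and Irf1, transcriptional regulators of these genes, fell (log2 fold changes -1.62 and -0.99), with Nlrc5 well above background on 3 of 4 RA arrays. Nlrc5 lost its call after quantile normalization (-1.32, adjusted p = 0.079), with normexp and quantile normalization (-0.49, adjusted p = 0.10), with the authors' values (-0.48, adjusted p = 0.11) and without RA replicate 1 (-1.40, adjusted p = 0.056), whereas Irf1 kept its call in these. Tap1, the peptide transporter gene that lies between Psmb9 and Psmb8 on chromosome 17, read -3.41, -2.74, -1.22 and -2.17 in untreated cells and -2.28, -2.41, -1.92 and -1.92 after RA, with a log2 fold change of 0.25 (SE 0.41) that did not pass.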

How the data were processed

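Total RNA of untreated and RA-treated E14Tg2A.4 ES cells (4 biological replicates each) was labelled with Cy3 and hybridised to 1-colour Agilent 8x60K arrays. The deposited intensity of each spot, gProcessedSignal, had been background-subtracted and detrended by Feature Extraction 10.7.3.1, with no normalization between arrays. The series also holds the authors' processed log2 values, whose normalization is not given in the sources used here, and they served as an alternative (every array's median was 6.89, and the Spearman correlation with the scanner signal was 0.978 to 0.988). The deposited flags for spots well above background, saturation and outliers were used as given.

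Outlier and control spots were left out, spots of a probe were averaged, and each array's 75th percentile was subtracted from its log2 signals. Conditions were compared with limma 3.58.1 (R 4.3.3) in a fit to all 55681 probes without a block, with Benjamini-Hochberg adjustment over them. Named with every array's value were the called members, the catalytic subunits Psmb5 to Psmb10, Psme1 to Psme4 and Psmf1. From each pathway list the called genes with the 3 largest changes in each direction were named, and Pdia3, Tap1, Fam158a, Pomp and Adrm1, and the array values of B2m and Tap1, were added after their values were seen. Members and lists were chosen with earlier results of these data known, and the GC box was added to the motifs after the first ones had been searched. The deviations of same-numbered arrays had correlations of 0.104 to 0.189 over 27493 probes, with a highest value of 0.142 between different numbers. By the rule of every correlation above 0.1 they pair by number, but replicate 3, at 0.104, lay below that 0.142. The pairing is therefore uncertain, and a fit with that block was an alternative. The arrays lay on 2 slides with 2 of each condition. Further alternatives were another background correction (normexp), other scalings, a probe filter, the mean of a gene's probes, a 2-fold threshold and leaving out each array. In simulated data for this comparison (55640 probes, 200 changed) the fit recovered 22 of 100 changes of 1 and 69 of 100 changes of 2 on the log2 scale and called 2 unchanged probes. In the real data 37.7% of all probes passed the adjusted p, which makes its cutoff looser than in the simulation. The simulated recovery therefore does not give the share of changes missed among the members. Probe positions are those of the deposited files (mm9), and exons were not annotated here. A gene and a motif that were examined are not reported here. The number of arrays limits the precision. P-values measure the spread between these samples, whose origin from separate cultures is stated only as biological replication.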

Additional observations from a re-analysis of the deposited data

Results flagged for a closer look

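In 5 of 98 groups of 4 arrays 1 array stood apart from the other 3 by Dixon's ratio, and chance alone gives about 1 in 20. Psma5 in untreated replicate 1 read 5.05 against 4.75 to 4.78 in the others. Psmc1 in untreated replicate 2 read 5.46 against 5.68 to 5.70. Psmc2 in untreated replicate 1 read 5.47 against 5.27 to 5.30. Psmd9 in untreated replicate 4 read 1.84 against 1.49 to 1.51. Psmg3 in untreated replicate 3 read 2.85 against 3.82 to 3.92, and its call remained without that array.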

How the results depend on the processing

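Of the 13 called members none changed sign under any alternative. Psme2, Psmc1, Psmb9 and Psmd7 kept the call in all those run with the 1.5-fold rule. After quantile normalization 11 members were called higher and 2 lower (19 higher by adjusted p alone, 38.8% against 18% of all genes), and 11 and 2 with normexp background and quantile normalization and with the authors' processed values (20 higher by adjusted p alone in both, 40.8% against 18.5%). Of the original calls 5 higher and 2 lower were kept in each. Members without a call whose sign turned under quantile normalization, normexp with quantile normalization and the authors' values, in this order, were Psma4 (0.14, 0.12 and 0.13), Psma6 (0.18, 0.20 and 0.20), Psmb1 (0.22, 0.22 and 0.21), Psmb6 (0.0175, 0.027 and 0.02), Psmc4 (0.19, 0.17 and 0.17), Psmd12 (0.00730, 0.040 and 0.038), Psmd13 (0.066, 0.078 and 0.08) and Psmd6 (0.10, 0.091 and 0.095). The cause was not tested.

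Replicate number as a block left 4 members higher by adjusted p alone instead of 10 and 8 lower instead of 12 (all genes: 14.3% instead of 15% and 22.8% instead of 24.9%), ended the calls of Psme1 and Psmg3, and changed no other 1.5-fold call, and slide as a block changed none. In the catalytic pairs the changes of -1.31 (Psmb9 minus Psmb6) and -0.87 (Psmb10 minus Psmb7) had an exact permutation p of 0.056 within slides and 0.13 within replicate numbers, in each case the smallest p the design allows. At a 2-fold threshold 1 member was higher (2.04%) and 2 were lower (4.08%), against 10.3% and 14.5% of all genes.

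With each array left out in turn, 2 to 5 members were called higher and 3 to 9 lower, and 4 to 7 were higher and 7 to 12 lower by adjusted p alone (all genes: 12.8% to 14.1%, 19.4% to 23.2%, 13.1% to 15.2% and 20.4% to 26.3%). The fewest higher calls came without RA replicate 1 and the fewest lower calls without untreated replicate 1. The catalytic pairs ranged from 0.91 to 1.79 (Psmb8 minus Psmb5), -1.48 to -1.18 (Psmb9 minus Psmb6) and -0.99 to -0.75 (Psmb10 minus Psmb7, with an exact permutation p of 0.057 without untreated replicate 1 or 2). Uncalled members that crossed 0 ranged from -0.047 to 0.12 (Psma2), -0.11 to 0.032 (Psma6), -0.095 to 0.050 (Psmb1), -0.028 to 0.16 (Psmb7), -0.15 to 0.0068 (Psmc4), -0.11 to 0.20 (Psme3) and -0.0024 to 0.23 (Psme4). Signals near background limited Psmb8, Psma8 and Psmb11.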
